A study of Drosophila melanogaster with 3 samples.

Results

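The genes of juvenile hormone signalling and turnover were examined in a map of foxo binding in Drosophila melanogaster larvae. The set holds 9 genes chosen for their role in the pathway: the receptor genes gce and Met, the coactivator tai, the target gene Kr-h1, the synthesis gene jhamt, and the breakdown genes Jhe, Jheh1, Jheh2 and Jheh3. A gene counted as having a binding site when the summit of a peak in the authors' optimal list, the peaks that passed their reproducibility threshold, lay inside the gene or within 1000 bp of it. All 9 were found among the 13945 protein-coding genes on the 6 main chromosome arms, and 5 of the 9 had such a summit. The optimal list held 9766 peaks, of which 19 had their summit at these genes.

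The measurement was chromatin immunoprecipitation sequencing (ChIP-seq) on mixed-sex wandering third-instar larvae, used whole, of the strain foxo-MiMIC-GFP. In this strain an eGFP exon sits in an intron of foxo, so that the endogenous gene makes a tagged protein, and the precipitation was made with an antibody against GFP. There were 3 biological replicates of this 1 group, and no untagged, input or treated group was analysed here, so signal that needs foxo cannot be told apart from signal that does not. Because whole larvae were used, the tissue in which a site was bound is unknown, and binding in a small gland cannot be told apart from no binding at all. Beside the optimal list there are 4 relaxed lists, 1 per replicate and 1 of the pooled replicates, with 30000 regions each that include background. The signal of a region is the value written by the authors' caller on a scale no label states, and it was used here for ranks within a list. The sequencing depth is unknown.

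Juvenile hormone is a sesquiterpenoid made in the corpora allata that keeps insect larvae from entering metamorphosis early. It binds a receptor of the bHLH-PAS family, and in Drosophila the related genes Met and gce both encode such receptors. The bound receptor works with the coactivator taiman and switches on Kr-h1, a zinc finger factor that holds back metamorphosis. The hormone is removed by an esterase and by epoxide hydrolases. foxo is the forkhead factor that insulin signalling keeps out of the nucleus, so it acts most when nutrients are short.

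Across the set, gce held 7 summits, tai 9, Jheh3 2, and Jheh1 and Jheh2 shared 1 that lay between them, while Met, Kr-h1, jhamt and Jhe held none. The share of members with a summit was 55.6% (5 of 9), with a Wilson 95% interval of 26.7 to 81.1% that covers counting error only, against 40.0% of all protein-coding genes. The share of all genes lay inside that interval, and no test was made. The interval takes the 9 genes as independent, although Jheh1 and Jheh2 were counted through the same summit. A summit within 1000 bp of one of the gene's own transcription start sites (TSSs) was present at 4 of the 9 (gce, tai, Jheh1 and Jheh3), against 32.8% of all protein-coding genes. In the relaxed pooled list, 7 of the 9 had at least 1 region, against 55.4% of all protein-coding genes. The other 2, jhamt and Jhe, had no region in any of the relaxed lists, against 30.5% of all protein-coding genes.

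The number of summits followed gene length across the annotation, as the plot of gene length against number of summits shows. Among the 1395 longest genes, a group of 10% of all, 71.2% had a summit, with a median of 2 per gene, against 15.7% of the 1394 shortest. The gene tai, at 83434 bp, was the longest member, and gce, at 21309 bp, was the next. Of the 99 other genes within 20% of the length of tai, 29.3% had 9 or more summits, and their median was 4. Of the 423 other genes that close in length to gce, 6.62% had 7 or more summits, and their median was 2. Of the 7 summits counted for gce, 4 lay inside the gene. Jheh3, at 1704 bp, had 2 summits, a number reached by 8.78% of 2392 other genes within 20% of its length, whose median was 0. How gce and tai stood depended on the grouping by length: among the 1395 longest genes as a whole, 15.1% had as many summits as gce and 9.82% as many as tai. The 2 summits of Jheh3 lay 199 bp apart.

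**Figure D1:**
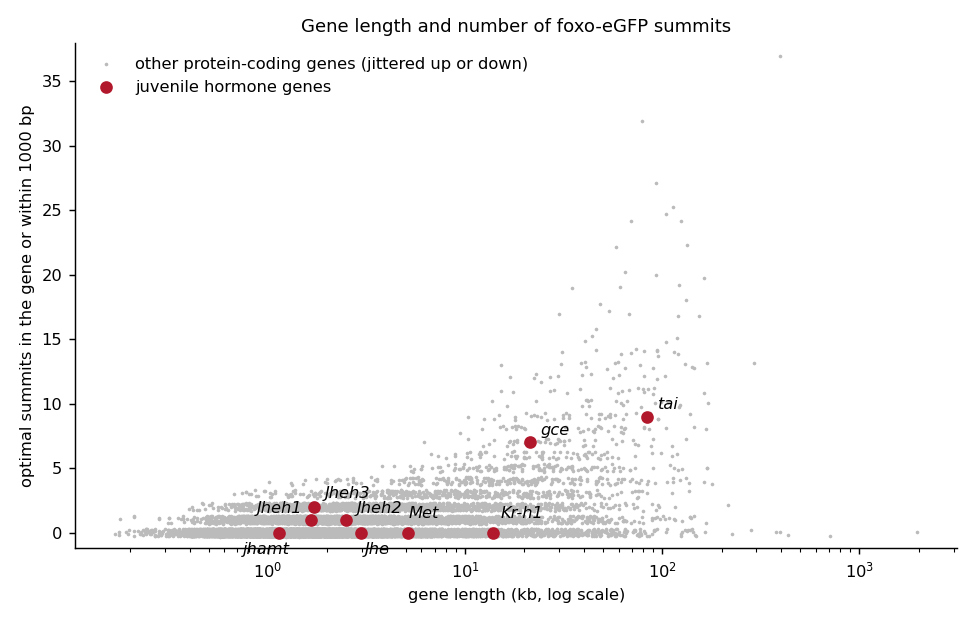
Each point is a protein-coding gene, with its length in kb on a log axis and the number of optimal summits in it or within 1000 bp of it on the vertical axis; grey points are jittered up or down and the 9 juvenile hormone genes are red. tai (9 summits) and gce (7) lie to the right among long genes, and Met, Kr-h1, jhamt and Jhe lie at 0.

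The 19 summits had signals from 154 to 1186 in the optimal list, with a median of 460, against a range of 151 to 10606 and a median of 321 over all 9766 peaks. Of the 19, 11 lay above the overall median and 3 were in the 10% of the list with the highest signal. By annotation, 11 lay in an intron of their gene, all of them in gce or tai, 5 were intergenic, and 1 each lay in a 5' UTR, a 3' UTR and an exon of a noncoding RNA. Of the 19, 10 had another within 250 bp, against 18.4% of all optimal summits. After joining such neighbours there were 14 sites, of which gce held 5, tai 7, the gap between Jheh1 and Jheh2 1, and Jheh3 1.

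A summit was called found in a replicate when one of its 9766 strongest regions had a summit within 100 bp. By this rule 12 of the 19 (63.2%, Wilson 95% interval 41.0 to 80.9%) were found in all 3 replicates, against 65.2% of all optimal summits, which lies inside that interval. A further 6 were found in 2 replicates and 1 in a single replicate. Each replicate had at least 1 of its strongest 9766 regions at 6 of the 9 genes, the 5 with an optimal summit and Kr-h1, against 34.0% of all protein-coding genes with such a region in all 3 replicates. In the full relaxed lists, 18 of the 19 had a match in replicate 1 and all 19 in replicates 2 and 3, against 96.2%, 95.6% and 94.5% of all optimal summits in replicates 1, 2 and 3. The matched summits lay a median of 17, 7 and 14 bp from the pooled summit in replicates 1, 2 and 3.

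**Figure D2:**
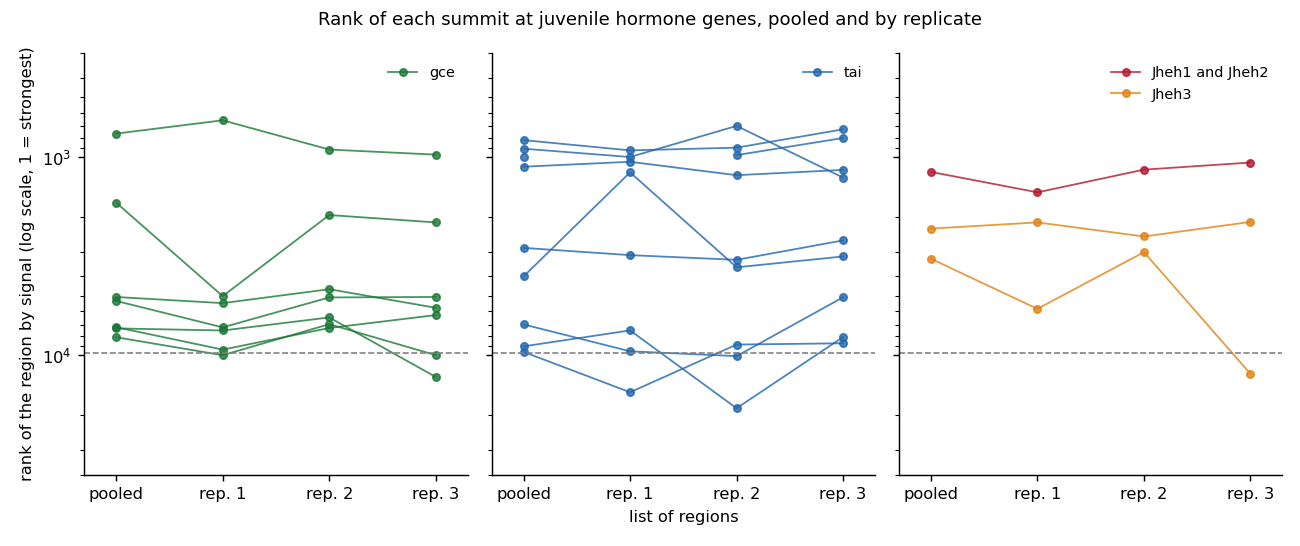
Rank by signal (log axis, 1 is the strongest region) of each of the 19 summits in the pooled list and in replicates 1 to 3, with 1 line per summit; the dashed line is rank 9766, the length of the optimal list, and a line is broken where a replicate had no summit within 100 bp. The strongest summits of gce, of tai and of the gap between Jheh1 and Jheh2 stay between ranks 653 and 1507 wherever they were matched, and the weaker ones spread more widely, down to rank 18481 for a summit of tai in replicate 2.

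Of the receptor genes, gce (germ cell-expressed bHLH-PAS, FBgn0261703, chrX:15297766-15319074 on dm6, plus strand) carried its strongest signal at the 5' end. The highest summit, at position 15298418, lay in the first intron, 652 bp into the gene and 591 bp before its second TSS. Its signal was 490 (rank 653) in replicate 1, 436 (rank 917) in replicate 2 and 257 (rank 973) in replicate 3, and it was 1186 (rank 762) in the pooled list. It ranked 973 or better among 30000 regions in every replicate. A weaker summit 200 bp further into the intron, at 15298618, ranked 5029, 1961 and 2137 in replicates 1, 2 and 3, so replicate 1 placed it lowest. The stronger of these summits lay 201 bp before the start of asRNA:CR44429, an antisense RNA that starts in that intron and runs across the first TSS of gce, so it is nearer to that start than to any of gce.

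Before the first TSS of gce there were 2 more summits, 682 and 478 bp upstream, with pooled signals of 293 and 215. The farther one lay in the 3' UTR of the neighbouring gene CG5877. They ranked 7226 and 9354 in replicate 1, 5104 and 7278 in replicate 2, and 5077 and 6265 in replicate 3, which put both among the strongest 9766 regions each time. Deeper in the gene, an intronic summit at 15304419 had a pooled signal of 308 and ranked 5454, 4639 and 5757 in replicates 1, 2 and 3. Another at 15312334, with a pooled signal of 189, ranked 9980, 6963 and 9975, so that it met the rule in replicate 2 alone. The last, at 15319434, lay 360 bp past the 3' end of gce and 45 bp before a TSS of Top1, the gene of DNA topoisomerase I. It ranked 7492, 6439 and 12849, and it lies nearer to Top1 than to gce. The TSSs of mir-4957 and of 2 further annotated noncoding RNAs lay 603, 592 and 557 bp from it.

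The sequence around these gce summits is shown to set the strongest summit beside its weaker neighbours, as 201 bases of the plus strand of dm6 centred on the summit. Capitals mark letters searched for: the forkhead core in the forms GTAAACA or else ATAAACA or else GTAAATA or else ATAAATA, on either strand, and, in the last one, the promoter element TATCGATA bound by the factor DREF.
gce first intron, strongest summit, chrX:15298318-15298518: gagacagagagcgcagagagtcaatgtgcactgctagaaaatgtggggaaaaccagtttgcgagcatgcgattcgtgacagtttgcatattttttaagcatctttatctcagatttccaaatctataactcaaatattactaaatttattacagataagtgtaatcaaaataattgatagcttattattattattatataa
gce first intron, weaker summit, chrX:15298518-15298718: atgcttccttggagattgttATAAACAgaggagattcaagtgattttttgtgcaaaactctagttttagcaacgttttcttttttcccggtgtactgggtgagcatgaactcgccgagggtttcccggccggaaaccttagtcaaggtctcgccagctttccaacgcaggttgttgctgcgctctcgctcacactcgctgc
gce upstream, chrX:15297188-15297388: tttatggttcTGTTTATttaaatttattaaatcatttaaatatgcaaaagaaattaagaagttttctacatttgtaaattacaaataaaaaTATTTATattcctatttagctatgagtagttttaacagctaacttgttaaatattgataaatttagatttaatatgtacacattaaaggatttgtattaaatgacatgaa
gce inner intron, chrX:15312234-15312434: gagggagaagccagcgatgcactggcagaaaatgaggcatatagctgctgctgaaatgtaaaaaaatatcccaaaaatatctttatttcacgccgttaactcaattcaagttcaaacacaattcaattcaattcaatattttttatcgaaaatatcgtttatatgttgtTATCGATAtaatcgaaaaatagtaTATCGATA
The strongest gce summit had none of the searched letters in its window. The weaker summit beside it had ATAAACA 77 bp before the summit, counted to the middle of the motif, on the plus strand. The upstream window held ATAAACA 87 bp and ATAAATA 6 bp before its summit, both on the minus strand. The inner window held no forkhead core and 2 copies of TATCGATA, 73 and 97 bp after the summit.

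Met (Methoprene-tolerant, FBgn0002723, chrX:11616124-11621280, plus strand), the paralog of gce, had no summit in the optimal list. It had 4 regions in the relaxed pooled list, with signals from 59.2 to 99.0, below the 150.7 of the last optimal peak. The strongest, in the 3' UTR, ranked 13718 in the pooled list, 13853 in replicate 1 and 13959 in replicate 2 and had no match in replicate 3. A region 61 bp before the Met TSS ranked 12159 and 17644 in replicates 1 and 2 and had no match in replicate 3; it also lay 223 bp before a TSS of RPA3, which runs the other way. A region in the 5' UTR, 158 bp after the TSS, had a match in every replicate. It ranked 14976, 29833 and 24760 in replicates 1, 2 and 3, and its window held 2 copies of the forkhead core, as ATAAACA. No region of Met was among the 9766 strongest of any replicate. The nearest optimal summit, with a signal of 1290 (rank 669), lay 1804 bp past the 3' end of Met and inside the next gene, Ptp10D, a receptor tyrosine phosphatase. Of 1209 other genes within 20% of the length of Met, 50.6% had a summit, so having none was about as frequent as having one.

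Of the signalling genes, tai (taiman, a steroid receptor coactivator of the p160 family, FBgn0041092, chr2L:9166778-9250211, plus strand) had the most summits. A pair of them flanked its first TSS. The upstream summit, at 9166663, lay 115 bp before that TSS and 149 bp before a TSS of CG9586, which runs the other way, so it lies at the starts of both genes. Its signal was 371 (rank 1057) in replicate 1, 358 (rank 1235) in replicate 2 and 232 (rank 1161) in replicate 3. The replicates thus placed it at closely similar ranks. The summit 91 bp inside the 5' UTR was weaker, with ranks of 9540, 10088 and 5093 in replicates 1, 2 and 3.

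The other 7 summits of tai lay in introns, from 1706 to 68873 bp after the first TSS. The strongest, at 9168484, had signals of 401 (rank 926), 440 (rank 897) and 300 (rank 725) in replicates 1, 2 and 3, and 1151 (rank 822) in the pooled list. The summit at 9224614, 57836 bp into the gene, had 383 (rank 1000), 511 (rank 697) and 220 (rank 1270). Both ranked 1270 or better in every replicate. A further strong intronic site, 44548 bp into the gene, had summits at 9211326 and 9211546, with pooled signals of 1032 and 384. Replicates 2 and 3 held both, the stronger at ranks 978 and 802. Replicate 1 instead held a single summit at 9211447, rank 1195, which lay between them, 121 bp from the stronger, and which the rule of 100 bp matched to the weaker. The summit at 9235651 ranked 3124, 3299 and 2632 and lay 943 bp from the start of a threonine tRNA gene on the other strand. The weakest were at 9203562, which ranked 7485, 18481 and 8078, and at 9207358, which ranked 15346, 8821 and 8691, so each was missing from the top regions of 1 replicate.

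The windows of tai are shown to set its promoter and strongest intronic summits beside its weakest, drawn as above from the plus strand of dm6, with the forkhead core in capitals.
tai promoter, chr2L:9166563-9166763: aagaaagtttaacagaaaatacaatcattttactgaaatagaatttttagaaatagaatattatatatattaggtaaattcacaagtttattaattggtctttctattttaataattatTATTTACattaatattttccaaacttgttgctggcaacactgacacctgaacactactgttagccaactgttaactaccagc
tai intron, strongest summit, chr2L:9168384-9168584: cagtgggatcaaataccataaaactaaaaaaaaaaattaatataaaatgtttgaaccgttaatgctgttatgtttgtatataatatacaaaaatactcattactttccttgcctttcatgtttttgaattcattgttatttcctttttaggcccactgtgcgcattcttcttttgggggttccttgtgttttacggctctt
tai intron, strong summit, chr2L:9211226-9211426: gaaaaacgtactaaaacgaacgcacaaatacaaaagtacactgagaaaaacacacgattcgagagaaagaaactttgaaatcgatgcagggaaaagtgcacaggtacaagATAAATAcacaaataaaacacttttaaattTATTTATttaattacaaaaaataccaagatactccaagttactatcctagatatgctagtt
tai intron, second strongest summit, chr2L:9224514-9224714: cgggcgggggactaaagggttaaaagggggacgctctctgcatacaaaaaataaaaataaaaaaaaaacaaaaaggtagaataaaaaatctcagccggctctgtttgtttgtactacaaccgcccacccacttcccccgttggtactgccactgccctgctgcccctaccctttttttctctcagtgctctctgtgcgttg
tai intron, weakest summit, chr2L:9207258-9207458: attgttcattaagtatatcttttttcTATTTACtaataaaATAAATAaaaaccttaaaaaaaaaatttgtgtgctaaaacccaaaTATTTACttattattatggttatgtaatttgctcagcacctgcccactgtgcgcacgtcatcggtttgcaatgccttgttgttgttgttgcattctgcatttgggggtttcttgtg
The promoter window held GTAAATA on the minus strand, 22 bp after the summit. The windows of the 2 strongest intronic summits held no forkhead core, and that of the strong summit at 9211326 held ATAAATA 13 bp after the summit on the plus strand and 43 bp after it on the minus strand. The weakest summit of tai had 3 copies of the core, the nearest 12 bp before the summit. Within tai, then, the number of cores did not order the summits by signal.

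Kr-h1 (Krüppel homolog 1, FBgn0266450, chr2L:6082603-6096498, plus strand), the gene that the hormone receptor is known to switch on, had no summit in the optimal list. It had 11 regions in the relaxed pooled list, and the strongest stood just under the threshold: an intronic region at 6085913 had a pooled signal of 147 (rank 9977), where the last optimal peak had 150.736 (rank 9766) and the first region outside the list 150.714 (rank 9767). That region had no match in replicate 1, a signal of 88.5 (rank 6707) in replicate 2 and 13.8 (rank 28788) in replicate 3. Replicate 1 did hold a summit nearby, at 6086027 (rank 11941), which the rule of 100 bp matched to the neighbouring pooled region at 6086112. The region at 6085913 was thus a strong region in replicate 2 alone. A region 712 bp upstream of the gene ranked 26105 and 12337 in replicates 1 and 2 and 6753 in replicate 3, and an intronic region at 6086968 ranked 8847, 11101 and 25490. Each was among the strongest 9766 regions of a single replicate, and a different replicate each time. In all, replicates 1, 2 and 3 held 2, 2 and 1 regions of Kr-h1 among their strongest 9766. Replicates 1 and 2 thus each held another besides those named. A region 5 bp before the first TSS ranked 9919 and 9815 in replicates 1 and 2, just outside, and had no match in replicate 3.

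The most evenly placed region of Kr-h1 lay in the same intron at 6088948, 6345 bp into the gene. It ranked 14156, 10589 and 10628 in replicates 1, 2 and 3, with summits within 3 bp of each other, and had a pooled signal of 134 (rank 10845). No replicate placed it in its strongest 9766 regions. Of 543 other genes of similar length to Kr-h1, 64.6% had an optimal summit. The nearest optimal summit to Kr-h1 lay 2550 bp from it, with a signal of 184 (rank 8275). That summit, at 6099048, lay just before the start of another gene, CG9175, which begins at 6098966 and runs the other way.

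**Figure D3:**
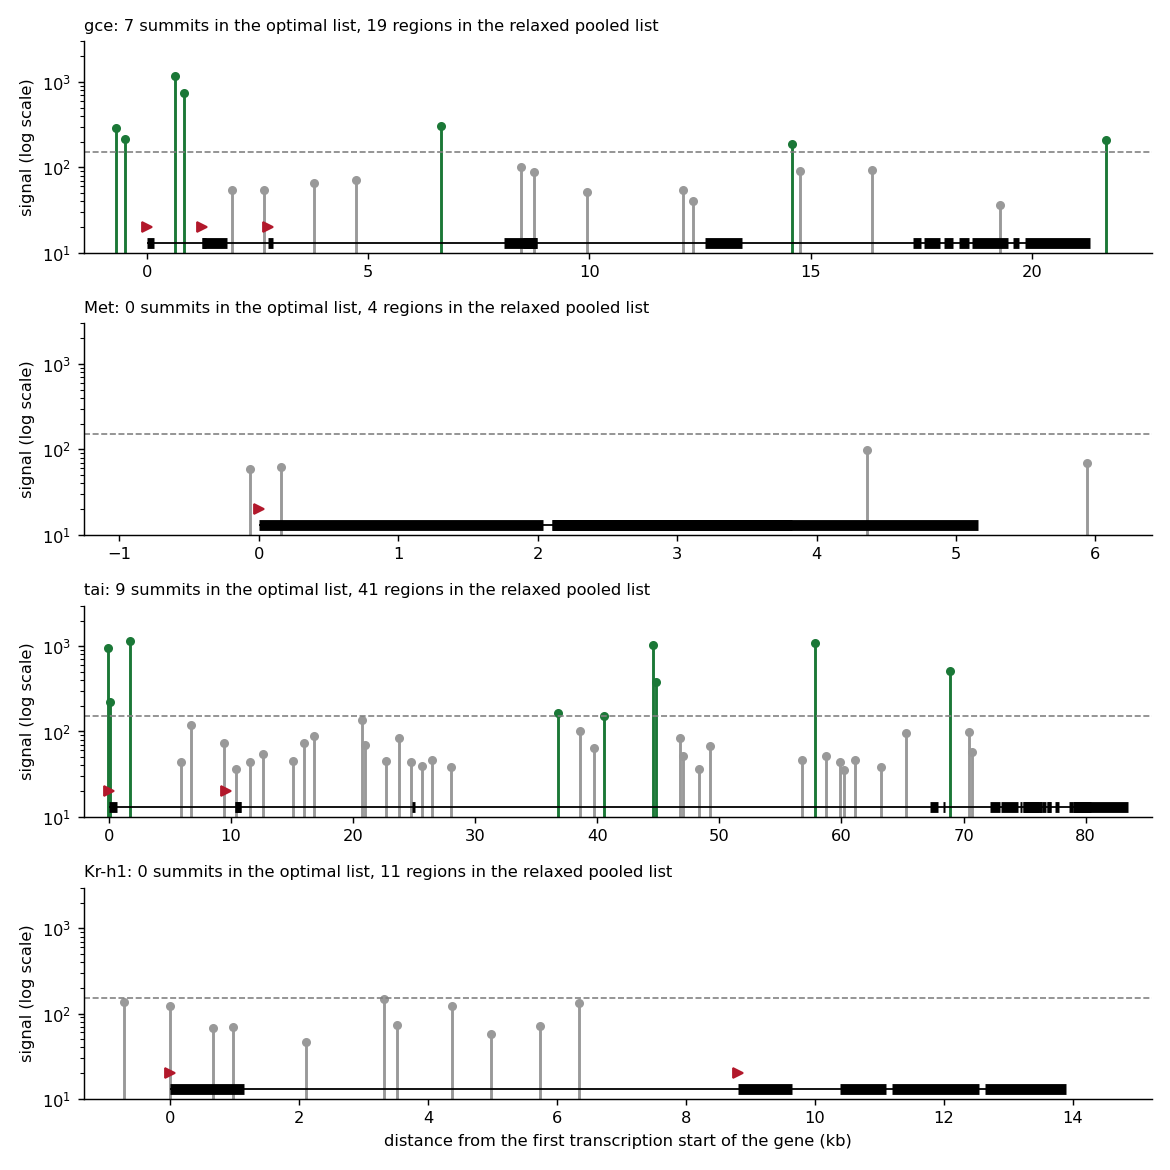
Signal in the pooled list (log axis) of every region in gce, Met, tai and Kr-h1 or within 1000 bp, against distance from the first TSS in kb; green regions are in the optimal list, grey ones are not, the dashed line is the signal of the last optimal peak, the black bars are exons and the red arrowheads are TSSs. The strongest regions of gce lie at its 5' end, those of tai at its 5' end and in its long introns, and all regions of Met and Kr-h1 stay below the line, the highest of Kr-h1 at 147.

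The windows of these 2 Kr-h1 regions below the threshold are shown because the second holds GTAAACA, the form of the core that forkhead factors are known to prefer, which no window of the 19 summits held. Among the other regions below the threshold, GTAAACA was also present in tai, at 9189494, 9227000 and 9237504. The Kr-h1 region was thus picked for its motif. GTAAACA was present at 5.58% of all optimal summits, and no share was computed over the regions below the threshold. Whether it is more frequent at Kr-h1 than elsewhere was therefore not tested. The Kr-h1 windows are drawn as above; capitals mark CACGCG, an E-box-like sequence of bHLH-PAS proteins, in the first and the forkhead core in the second.
Kr-h1 intron, strongest region, chr2L:6085813-6086013: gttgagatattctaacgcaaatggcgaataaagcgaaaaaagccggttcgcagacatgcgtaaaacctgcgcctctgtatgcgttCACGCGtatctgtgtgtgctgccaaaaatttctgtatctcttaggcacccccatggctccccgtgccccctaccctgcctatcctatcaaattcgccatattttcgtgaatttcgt
Kr-h1 intron, evenly placed region, chr2L:6088848-6089048: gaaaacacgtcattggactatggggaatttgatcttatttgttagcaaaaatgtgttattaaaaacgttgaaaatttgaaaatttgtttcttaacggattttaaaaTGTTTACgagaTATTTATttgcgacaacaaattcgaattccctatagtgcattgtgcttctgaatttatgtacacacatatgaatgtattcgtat
In the second window GTAAACA lay 9 bp after the summit and ATAAATA 20 bp after it, both on the minus strand. In the first, CACGCG lay 12 bp before the summit. CACGCG was not particular to Kr-h1 among the regions below the threshold. It was also present in tai, at 9173522 and 9215098, and at Jheh1, at 18852989. The E-box CACGTG, described below, was present in such regions of tai, at 9172699 and 9213590.

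Over the 19 summits, 8 (42.1%, Wilson 95% interval 23.1 to 63.7%) had the forkhead core within 100 bp, against 36.0% of all optimal summits. In windows shifted by 500 bp to either side it was present at 4 and at 4 of the 19, against 25.4% and 25.8% over all summits. The share over all summits lay inside the interval of the share at the juvenile hormone genes. GTAAACA was in 0 of the 19 windows, which by the limit of 3 counts in 19 allows a share of up to 15.8%, against 5.58% of all summits. The E-box CACGTG, a sequence that bHLH and bHLH-PAS proteins bind, was also in 0 of 19, against 1.83% of all summits, and CACGCG in 0 of 19, against 3.24%. TATCGATA was present at 1 of 19, the gce summit shown above, against 2.97%. The core promoter element GGTCACAC was present at 1, the summit before Top1, against 2.19%, and the GAGA sequence GAGAGAG at 0, against 4.03%. GTAAACA is itself one form of the core and is counted in both. The GC content of the 19 windows averaged 35.0% (18.4 to 49.8%), against 36.4% over all summits.

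The gene of hormone synthesis, jhamt (juvenile hormone acid methyltransferase, FBgn0028841, chr2L:16365903-16367039, plus strand), encodes a methyltransferase of the last steps of synthesis in the corpora allata. It had no region in the optimal, pooled or replicate lists. The nearest optimal summit lay 7890 bp away with a signal of 212 (rank 7296), and the nearest region of the pooled list 7687 bp away. Among 1982 other genes of similar length, 42.5% likewise had no region in any list.

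Of the breakdown genes, Jhe (juvenile hormone esterase, FBgn0010052, chr2R:16119793-16122773, plus strand) had no region in any list. Its closest optimal summit, with a signal of 1274 (rank 685), lay 6678 bp past its end, inside spin, which encodes a membrane protein of lysosomes. The nearest pooled region was 2264 bp away. The duplicate gene Jhedup, 644 bp from Jhe, also had no optimal summit. Of 1809 other genes of similar length to Jhe, 26.7% had no region in any list.

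The epoxide hydrolase genes Jheh1 (FBgn0010053, chr2R:18853434-18855087), Jheh2 (FBgn0034405, chr2R:18855767-18858245) and Jheh3 (FBgn0034406, chr2R:18860375-18862078) lie in a row on the minus strand, so that transcription runs from Jheh3 to Jheh1. The enzymes open the epoxide ring of the hormone, and such hydrolases also act on other lipid epoxides. The strongest summit of the cluster, at 18855529, lay in the gap of 680 bp between Jheh2 and Jheh1. Its signal was 298 (rank 1507) in replicate 1, 376 (rank 1158) in replicate 2 and 244 (rank 1066) in replicate 3, and 924 (rank 1189) in the pooled list. All 3 replicates thus ranked it 1507 or better, at summits 7, 4 and 2 bp from the pooled one. It lay 442 bp before the only annotated TSS of Jheh1 and 238 bp past the 3' end of Jheh2, so the rule counted it for both genes although it is at a start of Jheh1 alone. It also lay in an exon of asRNA:CR46485, a noncoding RNA on the other strand that spans the 3 genes up to the body of Jheh3. Replicates 1 and 3 had a further summit nearer to Jheh1, at 18855291 (rank 1520) and 18855280 (rank 950), which the pooled and replicate 2 lists did not hold.

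Jheh3 had 2 summits before its TSS, 244 and 443 bp upstream. The nearer ranked 2136, 2516 and 2124 in replicates 1, 2 and 3, with a pooled signal of 597 (rank 2296). The farther ranked 5828, 3017 and 12402, with a pooled signal of 460 (rank 3258), and so was outside the strongest 9766 regions of replicate 3. The nearer was even across replicates and the farther was not. Both lay between Jheh3 and CG43069, which runs the other way, at 540 and 341 bp from the start of that gene. The forkhead core was present in the window of the nearer summit of Jheh3 and absent from those of the farther one and of the summit before Jheh1.

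Jheh2 had no optimal summit at a start of its own. A region in its 5' UTR, 43 bp after its inner TSS, had a pooled signal of 128 (rank 11254). It ranked 7628 in replicate 1 and 10367 in replicate 3 and had no match in replicate 2, so a single replicate placed it among its strongest regions. Within the cluster, summits of the optimal list thus stood before Jheh3 and Jheh1 and not at the TSSs of Jheh2.

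**Figure D4:**
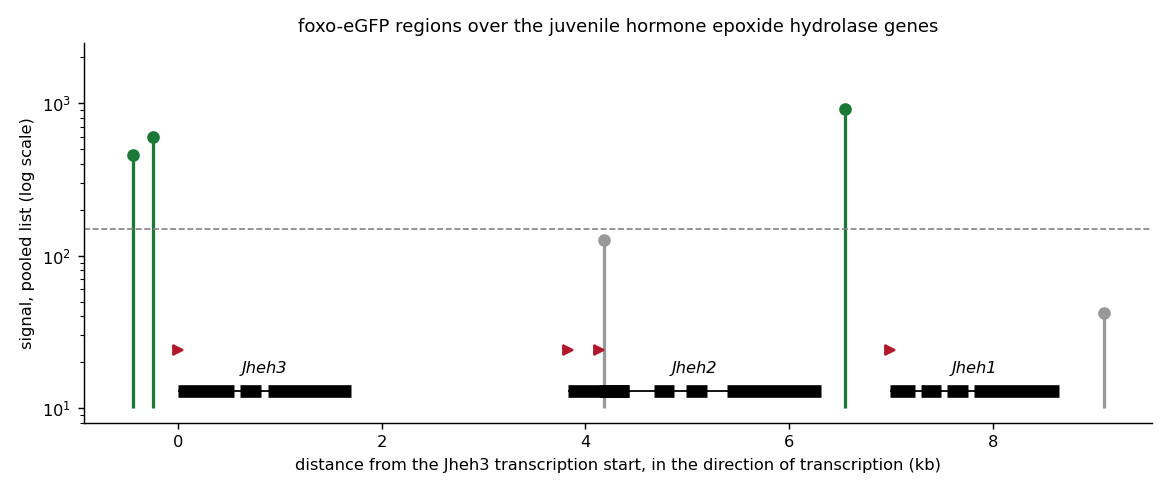
Signal in the pooled list (log axis) of the regions over Jheh3, Jheh2 and Jheh1, against distance from the Jheh3 TSS in kb in the direction of transcription; green regions are in the optimal list, grey ones are not, the dashed line is the signal of the last optimal peak, black bars are exons and red arrowheads TSSs. The regions before Jheh3 (597 and 460) and before Jheh1 (924) lie above the line, and the one at the inner Jheh2 TSS (128) lies below it.

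Other genes of the pathway were counted by the same rule, against the 40.0% of all protein-coding genes. Of 54 such genes matched in the annotation, 27 had a summit, and of the 16 among the longest 10% of genes 14 did, so length runs through these counts as well. Of the genes of receptor partners, 6 of 7 had a summit. They were led by Nup358, a nuclear pore protein, with a highest signal of 2419, Hsp83, the Hsp90 chaperone, with 1824, and EcR, the ecdysone receptor, with 1167. Fkbp39 had none. Of other bHLH-PAS genes 4 of 7 had a summit, led by sima, the hypoxia-inducible factor, with 1319, and the developmental regulators trh (623) and sim (451). All of these 3 were among the longest 10% of genes.

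Of genes of mevalonate and hormone synthesis other than jhamt, 5 of 9 had a summit, each of them within 1000 bp of a TSS. Of all protein-coding genes, 32.8% had a summit that near to a TSS. The highest signals were 518 at Hmgs (HMG-CoA synthase), 470 at Fpps (farnesyl diphosphate synthase) and 376 at Idi (isopentenyl diphosphate isomerase). Genes of allatostatin and NMDA receptor control of the corpora allata had a summit in 4 of 8 cases, none near a TSS, led by Nmdar2 (471), Nmdar1 (408) and AstA-R1 (183). In a list of other juvenile hormone genes, most of them Jhbp genes named for a hormone-binding protein family, 3 of 18 had one: Jhbp3 (589), Jhbp2 (288) and JhI-21 (162). These genes were 962 to 10079 bp long, all below the 14601 bp at which the longest 10% of genes begins. The share over all genes is therefore not matched to them in length. All 5 metamorphosis genes under juvenile hormone control had a summit, with the highest signals at Eip75B (2224), Eip74EF (1228) and chinmo (671). All 5 were among the longest 10% of genes, 71.2% of which had one. A summit near a TSS was present at 4 of 7 receptor partners, Nup358 not among them, and at 2 of 7 bHLH-PAS genes. It was present at 2 of the 18 other juvenile hormone genes and at 4 of the 5 metamorphosis genes.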

How the data were processed

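The authors deposited peak lists from 3 ChIP-seq libraries, each a biological replicate of 1 group, per the labels, on dm6 and dm3. The dm6 lists were used: the optimal list, the relaxed pooled list and 3 relaxed replicate lists. The signal of each region is the value the authors' peak caller wrote, as deposited, and its scaling is not stated. No source used here names the aligner, the caller or the reproducibility threshold. The optimal peaks were the 9766 pooled regions with the highest signal. Depth cannot be read from such lists, so intervals cover counting error only, as does the limit of 3 counts used where a count was 0. They take genes and summits as independent, although some summits lay within 250 bp of each other.

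Summits were assigned to genes of Ensembl release 115, whose assembly is that of dm6, and sequence came from NCBI Release 6, with Python 3.11.15, pandas 2.3.3, numpy 2.4.6 and statsmodels 0.14.6 (Wilson intervals). The genes and lists were chosen with earlier results of these data known, so no test was made. Each count at the main settings stands beside the share over all genes or summits. Text names all 9 genes, genes holding a summit or with a TSS within 1000 bp of one, and up to 3 genes of each list by signal; the other genes named were chosen after their values were seen. The symbols dys and JhI-1 were not matched. Windows of summits that overlap a UTR are not printed. Alternatives were other distances, the 4883 strongest peaks, other matching rules, each replicate left out and other motif windows. The scripts were tested on simulated data.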

Additional observations from a re-analysis of the deposited data

How the results depend on the processing

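With summits inside the gene alone, members with a summit numbered 2 (gce and tai) and summits 12, against 5 and 19 within 1000 bp; Jheh1, Jheh2 and Jheh3 then had 0 and gce 4. Within 2000 bp Met gained 1 summit, giving 6 members. In the 4883 strongest peaks the same 5 members had 11 summits. Summits found in all 3 replicates numbered 12, and 6 when matched within 50 bp. Leaving out replicate 1, 2 or 3 gave 14 found in both others each time. Apart from the motif counts, shares over all genes or summits were not computed at these settings. Whether the changes are particular to these genes was therefore not tested. The forkhead core was present at 8 summits within 100 bp and at 14 within 250 bp, against 60.7% of all summits at that distance. Among the alternatives of the counts over the whole set, 18 stayed within 1.5 times their value, some of them given above, and 5 did not. The E-box stayed at 0 in each motif window. Peak lists alone limit what a missing summit means: whether a region was absent or under the limit of the list was not tested.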
